A study of Mus musculus with 6 samples.

Results

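The genes described are the ligands and receptors of the VEGF and angiopoietin systems, chosen by name: Vegfa, Vegfb, Vegfc and Pgf, their receptors Flt1, Kdr and Flt4, the angiopoietins Angpt1 and Angpt2, and the angiopoietin receptor Tek. All 10 were found among the 36629 genes of the deposited tables. They were measured by bulk RNA-seq in pieces of thoracic spinal cord, from segments T8 to T12, of C57/BL6 mice aged 3 to 5 weeks and weighing 18 to 20 g, taken 3 days after surgery. In the 3 libraries of the injured group, called SCI for spinal cord injury, the cord was exposed by removing the roof of vertebrae T9 and T10 and crushed for 5 s with a vascular clip of 60 g force. The sham group (3 libraries) had the same exposure without the crush, although its treatment label reads untreated. The labels give no sex, no genotype other than wild type, and no statement of whether a library is 1 animal or a pool. P-values therefore measure the spread between these libraries.

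Vessels grow and leak under the control of these ligands and receptors. VEGF-A acts on endothelial cells mainly through VEGFR2, the product of Kdr, while VEGFR1, the product of Flt1, binds VEGF-A tightly with weak signalling of its own and also binds VEGF-B and placental growth factor. VEGF-C acts on VEGFR3, the product of Flt4, best known in lymphatic vessels and in sprouting tip cells. Angiopoietin 1, made by cells around the vessel, activates Tie2, the product of Tek, and keeps vessels quiet, while angiopoietin 2, made and stored by endothelial cells, can oppose it and accompanies vessel remodelling. In the injured cord, vessels at the lesion are known to be lost, to leak and to regrow.

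Values are FPKM (fragments scaled to the length of the gene and to the size of the library), so that levels of different genes can be set side by side. Changes are differences of log2(FPKM + 1), SCI minus sham, tested with limma over the 17435 genes that reached 1 FPKM in 3 or more libraries, and a gene was called when its Benjamini-Hochberg adjusted p was under 0.05. The FPKM summed to between 716215 and 727259 in the SCI libraries and between 726733 and 734791 in the sham libraries, and the number of reads behind them is unknown. Haemoglobin genes took 0.656%, 6.16% and 0.211% of the FPKM in SCI replicates 1, 2 and 3, against 0.109% to 0.126% in sham libraries. SCI replicate 3 also held transcripts of sensory ganglion neurons, with Scn10a at 6.6 and Mrgprd at 1.96 FPKM, and both genes were at 0 in the other libraries. Markers of endothelium, a cell type that carries the receptors, were present in all libraries. Over 10 genes they summed to 353 to 410 FPKM in SCI and 128 to 153 FPKM in sham libraries. Which cells carried the receptor transcripts was not tested.

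All 10 genes passed the filter. Of these, 7 rose, 1 fell and 2 did not pass. Of all genes tested, 57.5% were called, 26.7% higher and 30.8% lower. For 8 of the 10, 7 higher and 1 lower, every SCI library lay on the same side of every sham library, as it did for 67.6% of all genes tested, 30.7% higher and 36.9% lower. The median change of the 10 was 0.52 on the log2 scale, beside −0.08 over all genes tested. In bulk tissue, a change in the number of cells of a type and a change in RNA per cell cannot be told apart.

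**Figure D1:**
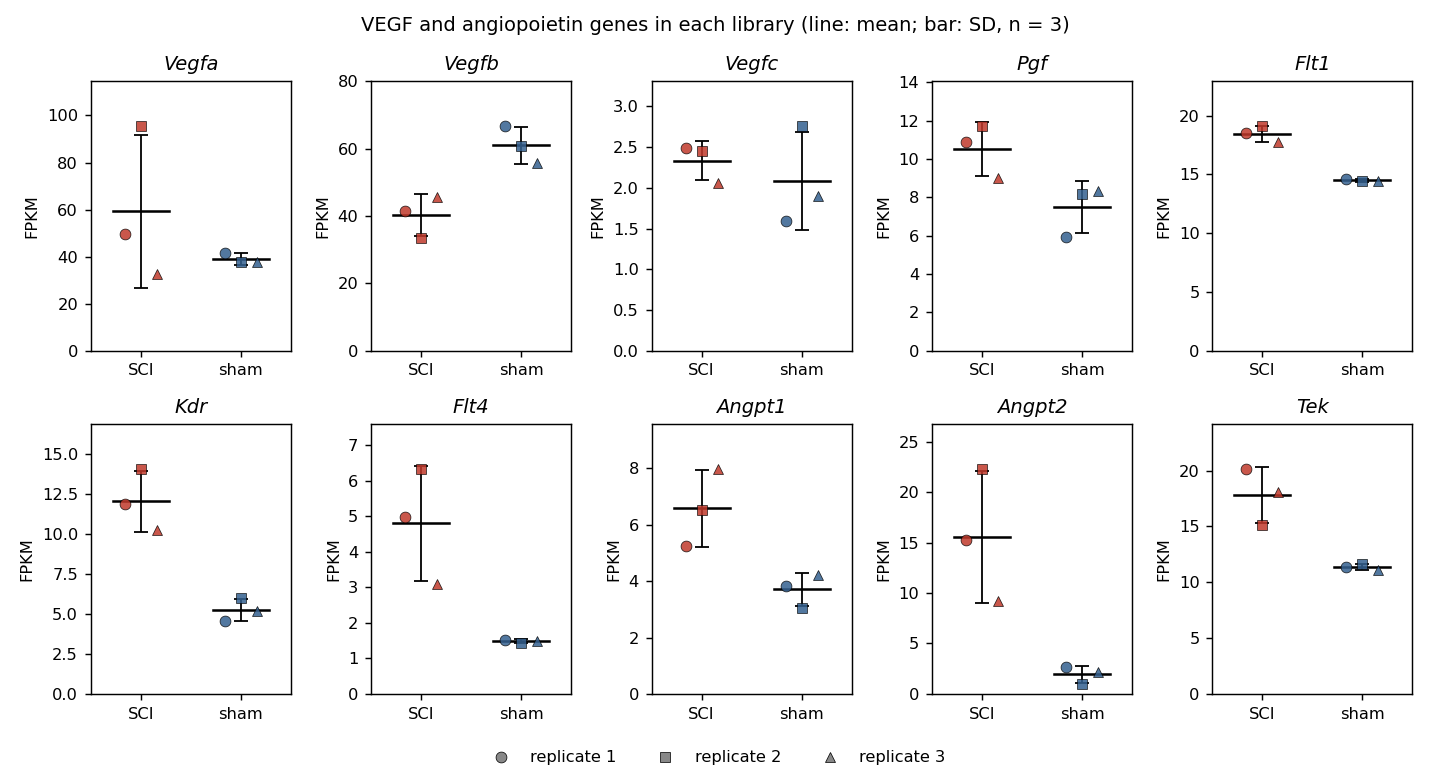
FPKM of the 10 genes in each library, SCI left and sham right in each panel, with the axis starting at 0; symbols give the replicate, the line the mean and the bar the SD (n = 3). Angpt2 was at 9.18 to 22.27 in SCI and 1.03 to 2.62 in sham libraries, Vegfb was lower in every SCI library, and Vegfa was spread from 32.58 to 95.53 in SCI libraries.

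The stretches before the start sites are shown for the 3 most abundant receptors, Flt1, Kdr and Tek, all of which rose, and for the ligands Vegfb, which fell, and Vegfa, which did not pass. The sequences are from RefSeq on GRCm38.p6, cover the 250 bases before the annotated start, and are written 5′ to 3′ on the strand of the gene. RefSeq start sites were at hand for 8 of the 10 genes, all but Angpt1 and Angpt2. In the receptors the capitals mark GGAA on either strand, the core bound by ETS factors, which are known to drive endothelial genes. In the ligands they mark ACGTG or GCGTG on either strand, the core of the hypoxia response element.
Flt1: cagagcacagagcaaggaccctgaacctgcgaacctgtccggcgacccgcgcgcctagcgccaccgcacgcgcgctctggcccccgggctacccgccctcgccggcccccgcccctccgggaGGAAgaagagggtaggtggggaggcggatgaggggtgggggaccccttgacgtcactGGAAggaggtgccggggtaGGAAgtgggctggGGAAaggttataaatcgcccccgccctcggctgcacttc
Kdr: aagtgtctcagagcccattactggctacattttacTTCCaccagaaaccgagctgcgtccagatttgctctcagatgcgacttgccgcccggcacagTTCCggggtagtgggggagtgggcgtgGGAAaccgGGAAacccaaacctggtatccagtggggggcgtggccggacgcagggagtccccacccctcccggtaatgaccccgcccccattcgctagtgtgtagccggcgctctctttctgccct
Tek: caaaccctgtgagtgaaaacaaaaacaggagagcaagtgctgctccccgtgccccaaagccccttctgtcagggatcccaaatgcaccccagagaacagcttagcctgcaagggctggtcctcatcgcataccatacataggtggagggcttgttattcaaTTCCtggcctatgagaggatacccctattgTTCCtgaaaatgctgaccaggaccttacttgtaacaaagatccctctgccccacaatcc
Vegfb: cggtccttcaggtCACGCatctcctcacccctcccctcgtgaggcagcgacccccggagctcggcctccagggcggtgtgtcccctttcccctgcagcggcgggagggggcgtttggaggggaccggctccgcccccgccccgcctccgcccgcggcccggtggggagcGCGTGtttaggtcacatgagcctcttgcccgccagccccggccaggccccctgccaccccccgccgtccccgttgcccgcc
Vegfa: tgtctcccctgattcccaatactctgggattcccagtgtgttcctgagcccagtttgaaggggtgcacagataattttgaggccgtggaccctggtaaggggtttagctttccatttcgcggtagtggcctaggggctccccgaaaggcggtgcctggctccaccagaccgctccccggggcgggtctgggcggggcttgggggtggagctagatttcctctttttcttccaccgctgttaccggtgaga
The Flt1 window is chr5:147726012-147726261 on the minus strand, that of Kdr chr5:75978456-75978705 on the minus strand, and that of Tek chr4:94739039-94739288 on the plus strand. The Vegfb window is chr19:6987652-6987901 and that of Vegfa chr17:46032378-46032627, both on the minus strand. GGAA occurred 6 times before Vegfa, the most of the 8 genes, 4 times before Flt1 and Kdr, 2 times before Tek and Flt4, 1 time before Vegfb and Vegfc and 0 times before Pgf, while 93.4% of all 32851 windows of this length held it, with a median of 3 matches. A hypoxia core occurred 2 times before Vegfb, 2 times before Kdr, 1 time before Flt1 and Pgf and not before Vegfa, Vegfc, Flt4 or Tek, and 38.6% of all windows held at least 1. A match is a string of letters and not a site shown to be bound. The hypoxia element known for Vegfa lies farther upstream than this window reaches.

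Among the VEGF ligands, Vegfb fell and Pgf rose, while Vegfa and Vegfc did not pass. Vegfb encodes VEGF-B, a ligand of VEGFR1 that is abundant in tissues rich in mitochondria and only weakly promotes vessel growth. It was at 41.55, 33.49 and 45.72 FPKM in SCI libraries, against 66.78, 60.73 and 55.66 in sham libraries. Every SCI library lay below every sham library. The means were 40.3 ± 6.22 in SCI and 61.1 ± 5.57 in sham libraries (SD, n = 3 each), and the limma log2 change was −0.60 (SE 0.13, adjusted p = 0.00597).

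Pgf encodes placental growth factor, which binds VEGFR1 and not VEGFR2 and also attracts monocytes. It was at 10.9, 11.73 and 8.99 FPKM in SCI libraries, against 5.94, 8.2 and 8.35 in sham libraries. The groups did not overlap, but SCI replicate 3 lay close above the highest sham library. The limma log2 change was 0.45 (SE 0.15, adjusted p = 0.037). That call was lost in 7 of 13 alternatives, among them without SCI replicate 1 (adjusted p = 0.0947), SCI replicate 2 (0.0937), sham replicate 1 (0.102) or sham replicate 2 (0.0504), and the blocked fit gave an adjusted p of 0.053.

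Vegfa encodes VEGF-A, the main growth and permeability factor of vessels, which astrocytes, neurons and macrophages can make and which hypoxia induces. It was at 49.55, 95.53 and 32.58 FPKM in SCI libraries, against 41.72, 37.51 and 37.77 in sham libraries. SCI replicate 2 stood far above all others, and SCI replicate 3 below every sham library. The limma log2 change was 0.45 with a 95% interval from −0.34 to 1.24 (adjusted p = 0.281), which spans both directions. The change was 0.04 without SCI replicate 2 (adjusted p = 0.838), and 0.81 without SCI replicate 3, where it passed (adjusted p = 0.0338). SCI replicate 2 had the highest haemoglobin share and the highest sums of the macrophage, neutrophil, platelet and fibroblast lists among the injured libraries, and their part in its Vegfa level was not tested.

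Vegfc encodes VEGF-C, the growth factor of lymphatic vessels. It was low throughout, at 2.49, 2.45 and 2.06 FPKM in SCI libraries, against 1.59, 2.76 and 1.9 in sham libraries. The groups overlapped, and the limma log2 change was 0.13 with a 95% interval from −0.27 to 0.52 (adjusted p = 0.539).

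All 3 VEGF receptors rose, by unequal amounts. Kdr, the receptor through which VEGF-A drives endothelial growth and leak, was at 11.87, 14.07 and 10.25 FPKM in SCI libraries, against 4.57, 5.99 and 5.21 in sham libraries. The lowest SCI library was well above the highest sham library, and the means stood 2.29-fold apart at 12.1 ± 1.92 in SCI and 5.26 ± 0.711 in sham libraries (SD, n = 3 each). The limma log2 change was 1.06 (SE 0.14, adjusted p = 0.000785).

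Flt4, the receptor of VEGF-C, was at 4.98, 6.32 and 3.1 FPKM in SCI libraries, against 1.53, 1.43 and 1.5 in sham libraries. Its sham libraries were close to each other, and the SCI libraries all lay above them but were spread widely. The means were 4.8 ± 1.62 in SCI and 1.49 ± 0.0513 in sham libraries (SD, n = 3 each), a 3.23-fold difference, and the limma log2 change was 1.18 (SE 0.21, adjusted p = 0.00275). Flt4 is the defining receptor of lymphatic endothelium, and of the other markers of that cell type Mmrn1 was at 0.42 FPKM or less and Ccl21a at 0.66 FPKM or less in every library. Lyve1 was at 4.66 to 8.66 in SCI and 0.77 to 1.32 in sham libraries, and Pdpn at 59 to 117.59 in SCI and 6.55 to 9.96 in sham libraries, though macrophages also make the first and reactive astrocytes and fibroblasts the second. Prox1 was at 5.3 to 10.86 in SCI and 11.26 to 12.03 in sham libraries. Every SCI library thus lay below every sham library for Prox1, but it did not pass. Which cells carried Prox1 was not tested, so its level is not a measure of lymphatic endothelium here.

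Flt1, the receptor that binds VEGF-A, VEGF-B and placental growth factor and, in a secreted form, traps them, changed least of the receptors. It was at 18.52, 19.11 and 17.73 FPKM in SCI libraries, against 14.62, 14.45 and 14.42 in sham libraries. The libraries of each group lay within a narrow range and the groups were apart. The means were 18.5 ± 0.692 in SCI and 14.5 ± 0.108 in sham libraries (SD, n = 3 each), a 1.27-fold difference with a limma log2 change of 0.33 (SE 0.07, adjusted p = 0.00732). The values are totals over the gene, and the membrane and secreted forms were not separated.

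The ratio of Flt1 to Kdr within a library was lower in the injured cord. It was 1.56, 1.36 and 1.73 in SCI libraries, against 3.2, 2.41 and 2.77 in sham libraries, with no overlap between the groups. The mean log2 ratio differed by −0.83 (exact permutation test, two-sided, p = 0.1, adjusted p = 0.167 over the 10 ratios and relative levels tested). With 3 libraries against 3, a p of 0.1 is the smallest this test can give.

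Angpt2 changed most of the 10 genes. The angiopoietin that endothelial cells release when vessels are activated was at 15.23, 22.27 and 9.18 FPKM in SCI libraries, against 2.62, 1.03 and 2.15 in sham libraries. All SCI libraries were several times the highest sham library. The means were 15.6 ± 6.55 in SCI and 1.93 ± 0.817 in sham libraries (SD, n = 3 each), an 8.05-fold difference. The limma log2 change was 2.46 (SE 0.33, adjusted p = 0.000833), a value reached or passed by 2.16% of all genes tested. Angpt2 lies inside Mcph1 on the opposite strand with no exon in common. Mcph1 was at a mean of 3.65 FPKM in SCI and 2.36 in sham libraries.

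Angpt1, the ligand that activates Tie2, rose as well. It was at 5.25, 6.53 and 7.97 FPKM in SCI libraries, against 3.83, 3.05 and 4.23 in sham libraries. The groups did not overlap, and SCI replicate 3, the lowest injured library for Flt4 and Angpt2, was the highest for Angpt1. The means were 6.58 ± 1.36 in SCI and 3.70 ± 0.600 in sham libraries (SD, n = 3 each), and the limma log2 change was 0.68 (SE 0.16, adjusted p = 0.00997).

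The ratio of Angpt2 to Angpt1 within a library lay above 1 in every SCI library, at 2.9, 3.41 and 1.15, and below 1 in every sham library, at 0.684, 0.338 and 0.508. SCI replicate 3 was the closest to the sham libraries. The mean log2 ratio differed by 2.14 (exact permutation test, two-sided, p = 0.1, adjusted p = 0.167), and by 1.84 to 2.62 when any 1 library was left out. The ratios of Pgf to Vegfa, at 0.22, 0.123 and 0.276 in SCI and 0.142, 0.219 and 0.221 in sham libraries, overlapped between the groups (log2 difference 0.03, exact permutation p = 0.9, adjusted p = 0.9). So did those of Vegfc to Vegfa, at 0.0503, 0.0256 and 0.0632 in SCI and 0.0381, 0.0736 and 0.0503 in sham libraries (log2 difference −0.27, exact permutation p = 0.6, adjusted p = 0.75).

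Tek, the Tie2 receptor of endothelium and of some monocytes, was at 20.12, 15.15 and 18.09 FPKM in SCI libraries, against 11.39, 11.61 and 11.09 in sham libraries. The sham libraries were nearly alike and all SCI libraries were above them. The means were 17.8 ± 2.50 in SCI and 11.4 ± 0.261 in sham libraries (SD, n = 3 each), and the limma log2 change was 0.60 (SE 0.11, adjusted p = 0.00337).

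**Figure D2:**
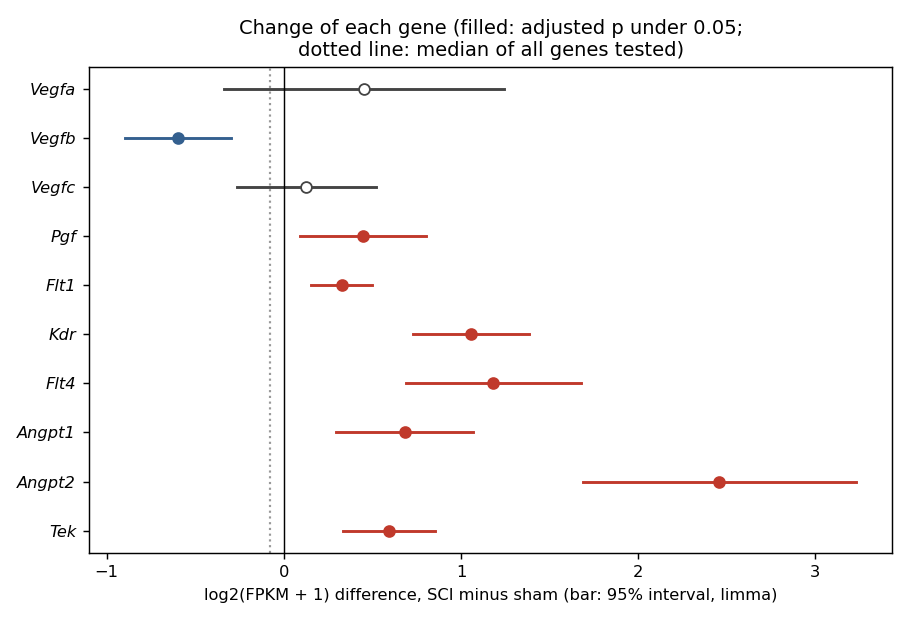
Difference of log2(FPKM + 1), SCI minus sham, for the 10 genes with limma's 95% interval (3 libraries per group); filled points were called, the solid line is at 0 and the dotted line at the median of all genes tested (−0.08). Angpt2 lies at 2.46, Flt4 and Kdr at 1.18 and 1.06, Vegfb at −0.60, and the intervals of Vegfa and Vegfc span 0.

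Ranked by mean FPKM, Vegfa (59.2) and Vegfb (40.3) led in the SCI libraries, followed by Flt1 (18.5), Tek (17.8), Angpt2 (15.6), Kdr (12.1), Pgf (10.5), Angpt1 (6.58), Flt4 (4.8) and Vegfc (2.33). In the sham libraries Vegfb (61.1) came before Vegfa (39.0), then Flt1 (14.5), Tek (11.4), Pgf (7.50), Kdr (5.26), Angpt1 (3.70), Vegfc (2.08), Angpt2 (1.93) and Flt4 (1.49). Angpt2 stood at place 5 in the SCI and place 9 in the sham order. In SCI libraries the ranges overlapped between neighbours from Vegfa to Vegfb, from Flt1 down to Pgf, and between Angpt1 and Flt4. In sham libraries they overlapped between Pgf and Kdr and from Vegfc down to Flt4.

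The 3 SCI libraries differed among themselves in a way that many of the genes shared. Vegfa, Pgf, Flt1, Kdr, Flt4 and Angpt2, 6 of the 10, were highest in SCI replicate 2, then in replicate 1, and lowest in replicate 3, an order found in 15.4% of all genes tested. The order was read from these same values, so the 2 shares are a description and not a test. SCI replicate 3 was also the library with sensory ganglion transcripts. Vegfb and Tek were lowest in SCI replicate 2. The summed FPKM of neutrophil markers followed the same order, at 271, 657 and 136 in SCI replicates 1, 2 and 3, as did those of platelet markers (279, 402 and 119), red blood cell markers (4717, 45060 and 1528), lymphatic markers (102, 131 and 75) and the secreted inhibitors of vessel growth (324, 806 and 268). Most of the lymphatic sum was Pdpn (82.12, 117.59 and 59). Lyve1 (8.66, 7.28 and 4.66) and Prox1 (10.86, 5.3 and 10.77) did not follow that order. Those of macrophage markers (1322, 2175 and 1829) and fibroblast markers (312, 621 and 360) were also highest in SCI replicate 2 but lowest in replicate 1, and those of endothelial markers (410, 381 and 353) were highest in replicate 1. Without SCI replicate 2, 6 of the 7 genes that rose still passed, Pgf being the exception, and Vegfb remained lower (log2 change −0.47). The part of these cells in the order was not tested.

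Receptors and angiopoietin 2 were set beside other endothelial transcripts, all of which were higher in the injured cord. Of the 10 endothelial markers 10 rose, beside 26.7% of all genes tested. Their median log2 change was 1.3, from 0.82 for Robo4 to 2.40 for Cdh5, the cadherin of endothelial junctions. Pecam1 (1.93) and Vwf (1.86) changed next most, and platelets also make both and leukocytes make the first. The mean log2 level of the 10 markers was 1.53 higher in SCI than in sham libraries, a 2.89-fold difference, with values of 5.01, 4.95 and 4.76 in SCI and 3.51, 3.32 and 3.30 in sham libraries. The groups did not overlap.

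Relative to these markers, Flt1 and Tek were lower in the injured cord. The log2 level of Flt1 minus the mean of the markers was −0.79, −0.68 and −0.60 in SCI libraries, against 0.37, 0.54 and 0.56 in sham libraries, a difference of −1.18. For Tek it was −0.67, −1.01 and −0.57 in SCI libraries, against 0.01, 0.23 and 0.19 in sham libraries, a difference of −0.90. Both receptors thus had more FPKM in the injured cord but less beside the markers, with no overlap between the groups. The mean of the markers itself was 1.53 higher in SCI libraries, so any gene that rose less is lower on this measure. Only 8.6% of all genes tested had a log2(FPKM + 1) change of at least that of Flt4 (1.18). Being lower beside the markers is therefore not particular to these receptors. Tie1, the orphan receptor that pairs with Tie2, was −0.71 ± 0.05 in SCI and −0.32 ± 0.27 in sham libraries (SD, n = 3 each). Its values were −0.645, −0.745 and −0.726 in SCI libraries, against −0.628, −0.167 and −0.159 in sham libraries. Sham replicate 1 thus lay close above the SCI libraries. Exact permutation tests gave p = 0.1, the smallest possible, for each of the 3, with adjusted p = 0.167.

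For Kdr and Flt4 the groups overlapped when all 10 markers were used. Kdr was −1.43, −1.12 and −1.39 relative to them in SCI libraries, against −1.29, −0.72 and −0.89 in sham libraries, a difference of −0.35 (exact permutation p = 0.2, adjusted p = 0.286). Flt4 was −2.67, −2.26 and −3.08 in SCI libraries, against −2.80, −2.71 and −2.62 in sham libraries (difference 0.04, exact permutation p = 0.9, adjusted p = 0.9). Angpt2 was higher relative to the markers with no overlap between the groups, at −1.07, −0.46 and −1.54 in SCI libraries, against −2.07, −3.15 and −2.12 in sham libraries (difference 1.42, exact permutation p = 0.1, adjusted p = 0.167). The size of these differences depended on the markers chosen. With Pecam1 and Cdh5 alone, the difference was −1.91 for Flt1, −1.62 for Tek, −1.11 for Tie1, −1.08 for Kdr and −0.69 for Flt4, each with an exact permutation p of 0.1, the smallest possible, and 0.69 for Angpt2 (p = 0.2). Both Kdr and Flt4 were thus lower relative to that pair of markers, which were among the endothelial markers with the largest change. With 7 markers, leaving out Pecam1, Eng and Vwf, a choice made after seeing the data, the difference was −1.06 for Flt1, −0.78 for Tek and 1.54 for Angpt2, each with an exact permutation p of 0.1. In that setting it was −0.27 for Tie1 (exact permutation p = 0.2), −0.23 for Kdr (p = 0.2) and 0.16 for Flt4 (p = 0.6).

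**Figure D3:**
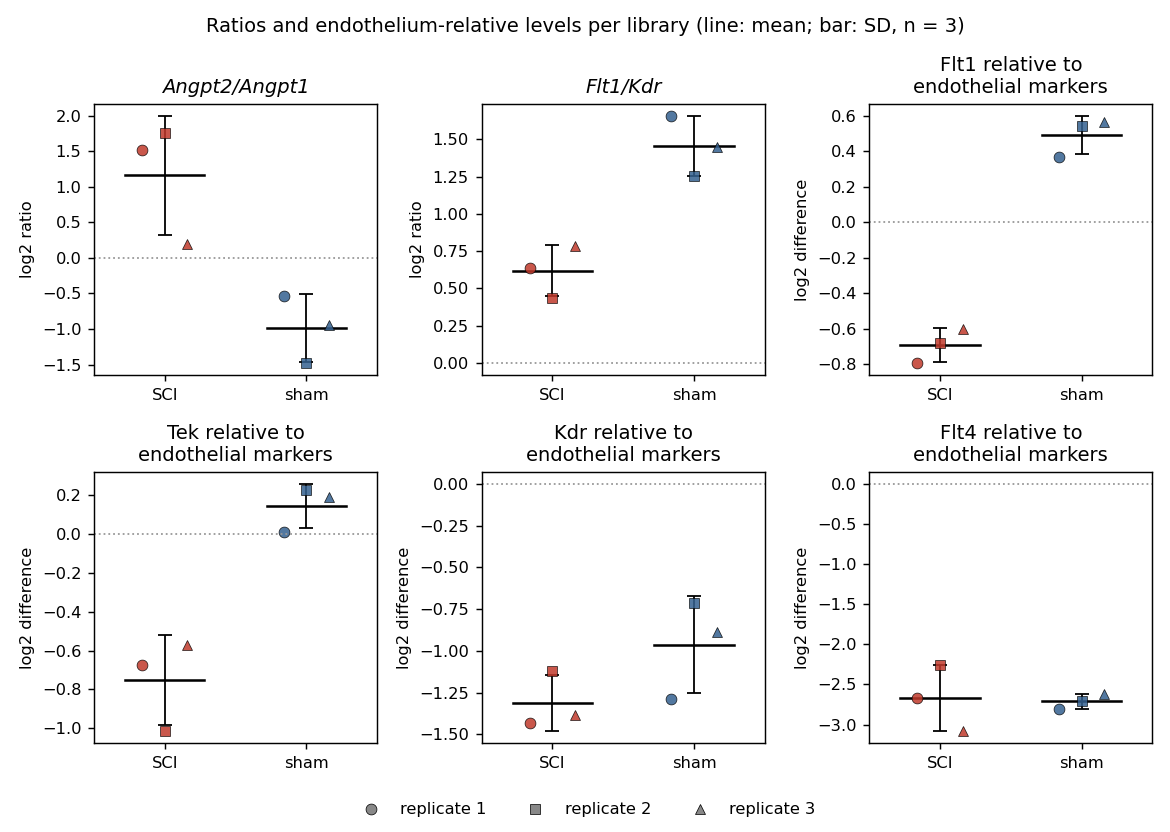
Log2 ratios within each library (Angpt2/Angpt1 and Flt1/Kdr) and log2 levels of 4 receptors minus the mean of 10 endothelial markers, SCI left and sham right; symbols give the replicate, the line the mean and the bar the SD (n = 3), and each panel has its own axis. Angpt2/Angpt1 lies above 0 in SCI and below 0 in sham libraries, Flt1 and Tek lie lower in SCI libraries, and the groups overlap for Kdr and Flt4 with all 10 markers.

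The other parts of the receptor complexes rose. Of 6 further ligands, coreceptors and a phosphatase, 4 were tested and all 4 rose, with no overlap between the groups. Among all genes tested 26.7% rose, and 30.7% were higher with no overlap. All gene lists used here were chosen with earlier results of these data known. Their counts beside such shares are thus a description and not a test. Tie1 had 18.4 ± 2.14 FPKM in SCI and 8.26 ± 0.857 in sham libraries (SD, n = 3 each; log2 change 1.06). Nrp1 and Nrp2, the neuropilins that bind VEGF beside Kdr and Flt4, were at 10.9 ± 1.59 and 18.5 ± 1.77 in SCI libraries, against 4.76 ± 0.454 and 9.99 ± 0.598 in sham libraries. Ptprb, the phosphatase that removes phosphate from Tie2, had a log2 change of 0.52 (limma adjusted p = 0.0079). The ligands Vegfd and Angpt4 were too low to test, at 0.9 to 1.55 and 0.5 to 1.14 FPKM in SCI and 0.59 to 0.78 and 0.06 to 0.39 in sham libraries.

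Among 7 tested relays of receptor signalling, 3 rose and 4 did not pass, where 26.7% of all genes tested rose and 30.8% fell. Nos3, the endothelial nitric oxide synthase that VEGF activates, was at 18.97, 16.63 and 17.65 FPKM in SCI libraries, against 6.93, 6.12 and 6.59 in sham libraries, with a log2 change of 1.31 (limma adjusted p = 5.18e-05). Dok2, an adaptor of Tie2 that myeloid cells also make, had a log2 change of 1.86, and Foxo1, the transcription factor that Tie2 signalling restrains and that switches on Angpt2, one of 0.50. Dok2 was under 1 FPKM in every sham library and passed the filter only through the SCI libraries. The kinases Src (0.22) and Fyn (−0.09), the phospholipase Plcg1 (−0.06, and 0.02 under median-ratio scaling) and the adaptor Shb (0.35) did not pass. Src (0.30) and Shb (0.42) did pass under median-ratio scaling, and Src (0.31) also without SCI replicate 2. Sh2d2a was at 0.12 FPKM or less in every library.

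Most genes of tip cells and genes that VEGF induces were higher in the injured cord. Of 8 genes 7 were tested, 6 rose and 1 did not pass, with a median log2 change of 2.00, where 26.7% of all genes tested rose. Esm1 and Plaur were under 1 FPKM in every sham library and passed the filter only through the SCI libraries. Esm1, a proteoglycan known as a VEGF-induced tip cell gene, was at 35.45, 66.35 and 12.06 FPKM in SCI libraries, against 0.5, 0.83 and 0.86 in sham libraries (log2 change 4.21, limma adjusted p = 0.000617). Its SCI libraries were in the order found for Angpt2. The Notch ligand Dll4 (1.39), the basement membrane protein Nid2 (2.00) and the calcineurin inhibitor Rcan1 (0.53) rose too. Plaur (4.12) and Cxcr4 (2.75) rose as well, and leukocytes also make both. Apln, the apelin peptide of tip cells, was at 69.42, 62.93 and 40.55 FPKM in SCI libraries, against 53.26, 60.79 and 59.28 in sham libraries (−0.04, and 0.04 under median-ratio scaling), and did not pass. Sham means were 57.8 FPKM for Apln and 36.1 for Rcan1, against 48.1 for the most abundant endothelial marker. Which cells carried these 2 transcripts was not tested. Kcne3 was too low to test, at 2.83, 5.92 and 0.54 in SCI and 0.2, 0 and 0.17 in sham libraries.

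Notch and flow-responsive genes went both ways. Of 6 tested, 4 rose, 1 fell and 1 did not pass, where 26.7% of all genes tested rose and 30.8% fell. Klf2 (log2 change 1.44) and Klf4 (1.36), transcription factors that blood flow induces, rose with Notch1 (0.89) and with Sox17 (0.47), a factor of arterial endothelium. The call on Sox17 was lost in 6 of 13 alternatives. Hey1, a Notch target, fell to 20.8 ± 3.06 FPKM in SCI libraries, against 31.4 ± 1.10 in sham libraries (SD, n = 3 each; log2 change −0.58), and Hey2 (−0.21) did not pass. Other cells of the cord also express Notch1, Hey1, Klf4 and Foxo1.

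Hypoxia regulators and targets went both ways too. Of 14 tested, 6 rose, 3 fell and 5 did not pass, with a median log2 change of 0.11. The 6 include Car9, which was at 0.21 FPKM or less in every sham library and passed the filter only through the SCI libraries. The shares over all genes tested were 26.7% higher and 30.8% lower. Ldha, lactate dehydrogenase A, was at 311 ± 67.8 FPKM in SCI and 75.5 ± 6.59 in sham libraries (SD, n = 3 each; log2 change 2.01), and Adm, the vessel-widening peptide adrenomedullin, at 15.7 ± 5.05 in SCI and 3.74 ± 1.01 in sham libraries (1.79). Hif1a, the hypoxia-inducible factor whose control is mainly at the protein level, had a log2 change of 1.25. Ndrg1 (−0.94) and Bnip3 (−0.89), which hypoxia also induces, fell, as did Egln1 (−0.28), an oxygen sensor, though its call was lost under median-ratio scaling (−0.20). Pgk1, the most abundant of the list at 507 ± 16.6 in SCI and 450 ± 8.39 in sham libraries (SD, n = 3 each), did not pass (0.17), but did under median-ratio scaling (0.25) and without SCI replicate 2 (0.19).

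Secreted inhibitors of vessel growth rose in 4 of 4 genes. Thbs1, or thrombospondin 1, was at 207.84, 648.9 and 162.87 FPKM in SCI libraries, against 3.82, 2.87 and 5.44 in sham libraries (log2 change 5.83, limma adjusted p = 0.000109). SCI replicate 2 was again far above the others, and platelets and macrophages also make this protein. Thbs2 (2.93), Serpinf1 (1.39), which encodes the factor PEDF, and Vash1 (0.50), which endothelial cells make in answer to VEGF, rose as well. Over the 6 pathway lists, 27 of 42 tested genes rose and 4 fell, beside the 26.7% and 30.8% of all genes tested. The 27 include Esm1, Plaur, Dok2 and Car9, which passed the filter only through the SCI libraries.

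**Figure D4:**
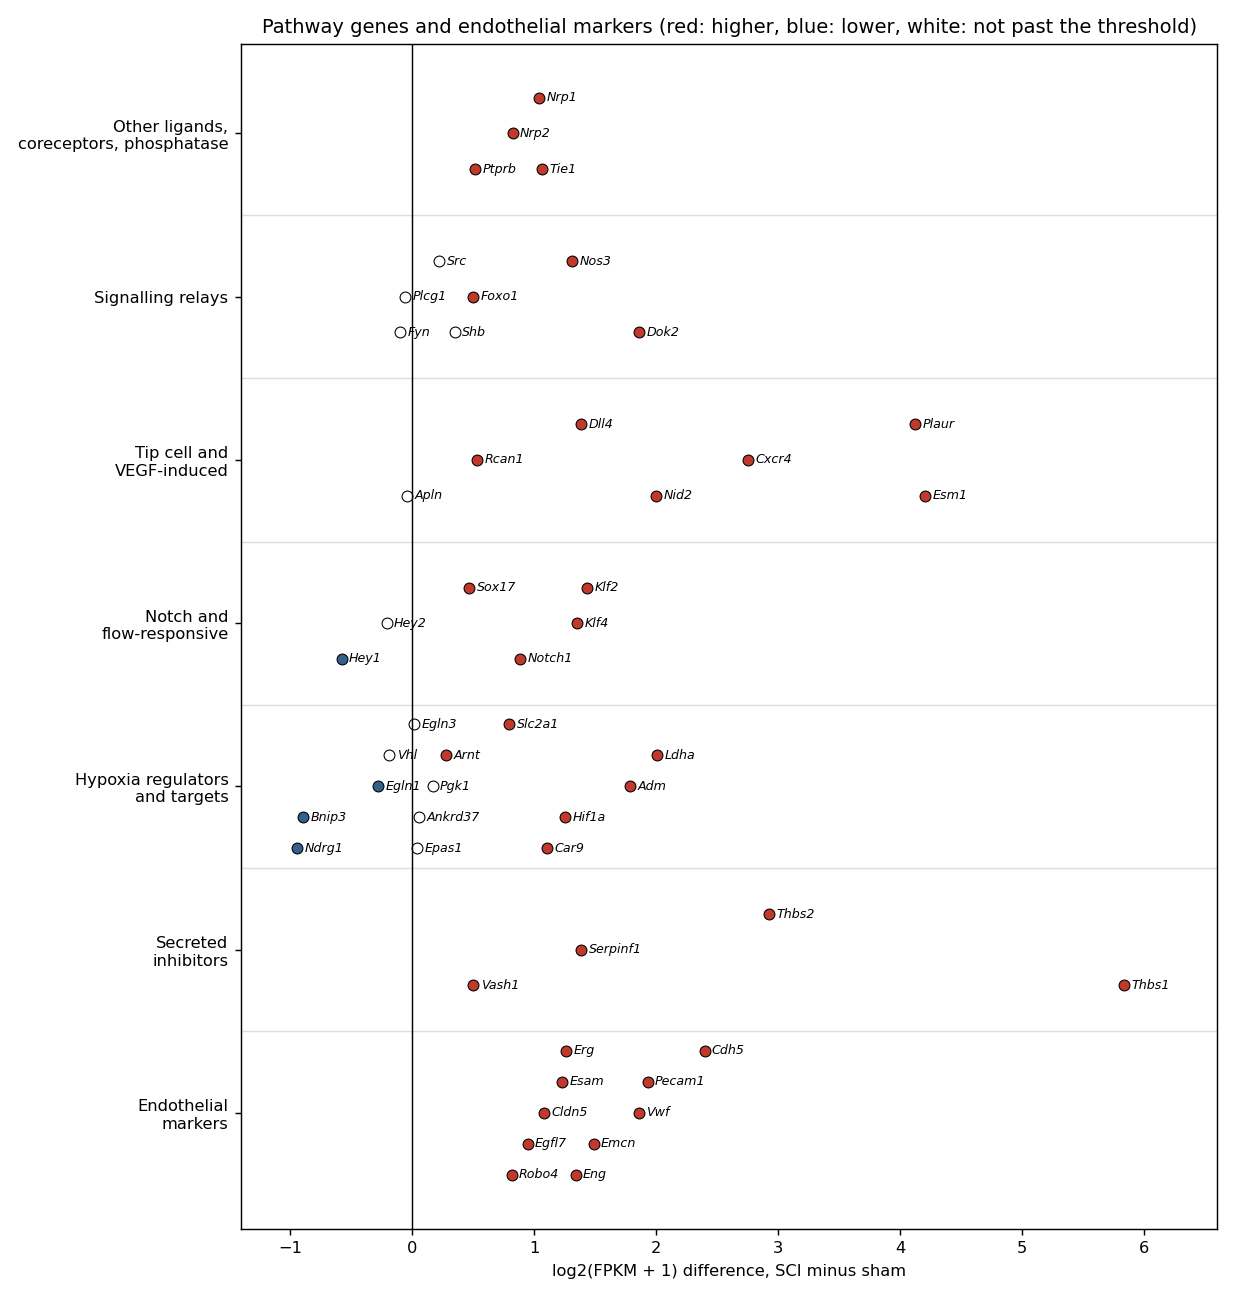
Difference of log2(FPKM + 1), SCI minus sham (3 libraries per group), for each tested gene of the 6 pathway lists and the endothelial markers; red points rose, blue fell and white did not pass, and rows within a list only keep labels apart. Thbs1 (5.83), Esm1 (4.21) and Plaur (4.12) lie farthest right, and Ndrg1 (−0.94) and Bnip3 (−0.89) farthest left.

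Markers of the other cells that could carry these transcripts moved as well, and their part in the changes was not tested. The counts below stand beside 26.7% of all genes tested that rose and 30.8% that fell. Macrophage and microglial markers rose in 8 of 8 genes, summing to 1322 to 2175 FPKM in SCI and 142 to 186 in sham libraries, led by Cd68 (log2 change 4.27), Lyz2 (3.46) and Adgre1 (3.38). Of these, Ms4a7 and Ccr2 passed the filter only through the SCI libraries. Neutrophil markers rose in 6 of 6 tested (136 to 657 in SCI and 18 to 48 in sham libraries), led by S100a8 (3.90), and fibroblast markers in 6 of 6 (312 to 621 in SCI and 52.3 to 116 in sham libraries), led by Col3a1 (3.75). Platelet markers rose in 3 of 4 tested (119 to 402 in SCI and 4.58 to 11.3 in sham libraries), and red blood cell markers in 3 of 5. Pericyte markers, of cells that make Angpt1, rose in 4 of 8, led by Anpep (1.82), and 4 did not pass. Those 4 were Kcnj8 (0.36), Abcc9 (0.25), Rgs5 (−0.04) and Vtn (−0.57). The sum over the 8 was 171 to 200 FPKM in SCI and 171 to 203 in sham libraries. Of 8 astrocyte markers 3 rose, led by Gfap (2.13), and 5 fell. Of 6 oligodendrocyte markers 4 fell and 1 rose, and all 6 neuronal markers fell. Lymphatic markers rose in 2 of 3 tested, and of 2 tested sensory ganglion markers 1 fell. No list held a gene at 0 in all 6 libraries.

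The gene with the highest Pearson r to each member on log2(FPKM + 1) over the 6 libraries was found among tested genes with a mean of at least 5 FPKM. It was Por for Angpt2 (r = 0.999), Tfpi2 for Flt4 (0.999), Arg1 for Flt1 (1.00), Bhlhe40 for Kdr (0.998), Zhx2 for Tek (0.998), Gpt for Vegfb (0.999), Preb for Angpt1 (0.996), Gm7862 for Pgf (0.997), Riok1 for Vegfa (0.985) and Rpl15-ps3 for Vegfc (0.958). Pearson r compares the pattern over libraries and takes no account of the level or the size of a change. Mean FPKM in SCI and sham libraries were 364 and 0.677 for Arg1, 47.7 and 0.247 for Tfpi2, and 52.2 and 31.7 for Por. These are the closest of all such genes over 6 libraries in 2 groups, and they describe these libraries only. The step between the groups carries much of r where a member's groups were apart, which was not so for Vegfa and Vegfc.

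The genes are placed on GRCm38 as in the files. Those on the minus strand are Vegfa (ENSMUSG00000023951, chr17:46016993-46032369), Vegfb (ENSMUSG00000024962, chr19:6982473-6987651), Pgf (ENSMUSG00000004791, chr12:85166635-85177790), Flt1 (ENSMUSG00000029648, chr5:147561604-147726011), Kdr (ENSMUSG00000062960, chr5:75932827-75978458), Angpt1 (ENSMUSG00000022309, chr15:42424723-42676977) and Angpt2 (ENSMUSG00000031465, chr8:18690263-18741562). Those on the plus strand are Vegfc (ENSMUSG00000031520, chr8:54077606-54187096), Flt4 (ENSMUSG00000020357, chr11:49609263-49652739) and Tek (ENSMUSG00000006386, chr4:94739289-94874976). All 10 are protein-coding genes in GENCODE M21, and the values are totals over each gene's exons. Angpt1 shares exon sequence with Gm17473 on the opposite strand, which was at a mean of 0.07 FPKM in SCI and 0.15 in sham libraries.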

How the data were processed

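The deposited values were FPKM, computed by the authors per gene and library and given to 2 decimals, per the file headers. Polyadenylated RNA was selected, strands were marked with dUTP and adapters carried molecular identifiers, per the labels' protocols. The submitters' processing notes name StringTie 1.3.4d, HISAT2 2.0.4, cutadapt 1.9, edgeR, DESeq2 and UMI-tools, and the build mm9, each without a role. The coordinates in the files matched GENCODE M21 (GRCm38) for 91.7% of 36502 shared identifiers, so they are given on GRCm38. The strand setting of the quantification is not given in the sources used here. FPKM are relative within a library, so abundant transcripts such as haemoglobin push all other values down, and without counts no interval for counting error can be given.

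From the FPKM, log2(FPKM + 1) was fitted with limma 3.58.1 (mean-variance trend) in R 4.3.3, with group as the only term, on genes that reached 1 FPKM in 3 or more libraries. Ratios and levels relative to endothelial markers used log2(FPKM + 0.1) and exact permutation tests in SciPy 1.17.1, adjusted over 10 values. The fit was also run on simulated data with few changed genes and independent noise. That is a check of the code only, as most genes were called in the real data. The gene lists, in 6 pathway and 12 cell type groups, and the members were chosen with earlier results of these data known. All members were named. Of each pathway list of 8 or fewer every tested gene was named, and of the hypoxia list the 3 called genes with the largest rise, the 3 with the largest fall and the 2 most abundant. Of a marker list, up to 3 genes with the largest change were named. Some genes were named after their values were seen. These were genes below the filter, those noted as passing it only through the SCI libraries, and genes overlapping a member. They also include lymphatic and sensory ganglion markers and the pericyte markers that did not pass. Alternatives changed the pseudocount, filter, scaling, replicate block or the libraries used. Same-numbered libraries of the groups did not deviate together (r of −0.01, −0.04 and 0.02), so the numbers were not taken as pairs. Libraries correlated within groups at r of 0.984 to 0.991 and between groups at 0.934 to 0.961 over all genes, and no library was identical to another.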

Additional observations from a re-analysis of the deposited data

How the results depend on the processing

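Vegfb, Flt1, Kdr, Flt4, Angpt1, Angpt2 and Tek kept their direction and their call in all 13 alternatives each: pseudocounts of 0.1 and 0.5, no filter, quantile normalization, median-ratio scaling, rescaling without mitochondrial and haemoglobin genes, the replicate block, and leaving out each library. Their log2 changes ranged from −0.69 to −0.47 for Vegfb, 0.99 to 1.57 for Flt4 and 2.17 to 2.95 for Angpt2. Pgf (0.31 to 0.55) kept its call in 6 of 13. Members that rose numbered 6 to 8 when any 1 library was left out, and the 1 that fell stayed 1. Pathway genes that rose numbered 21 to 27 and those that fell stayed 4 in the same settings, with fewer genes tested. With the replicate block 9443 genes were called, against 10024 without it, 6 members rose and 1 fell, and no member other than Pgf lost its call (Pgf adjusted p = 0.053). Quantile normalization moved the median change of all genes to −0.13, and median-ratio scaling to −0.01.

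Among the members and the named pathway genes, sign changes were seen only in uncalled values, and the cell type markers were not run under the alternatives. No ratio or relative level could be called, as the smallest possible exact permutation p was 0.1. Of these, Pgf to Vegfa, Vegfc to Vegfa and Flt4 relative to the markers changed sign. Under median-ratio scaling, Plcg1 was at 0.0213 and Apln at 0.043. Leaving out 1 library, Plcg1 ranged from −0.0911 to 0.0055, the last without sham replicate 3, and Apln from −0.1873 to 0.1933, the last without SCI replicate 3. The log2 difference of Pgf to Vegfa was −0.006 with a pseudocount of 1 and ranged from −0.22 to 0.37 leaving out 1 library. That of Vegfc to Vegfa ranged from −0.55 to 0.11. Flt4 relative to the endothelial markers was −0.25 with a pseudocount of 1, −0.69 with Pecam1 and Cdh5 only, and −0.16 to 0.25 leaving out 1 library. The cause of these changes was not tested. Relative to the markers, leaving out 1 library gave −1.24 to −1.13 for Flt1, −0.99 to −0.77 for Tek, −0.51 to −0.23 for Kdr, −0.54 to −0.31 for Tie1 and 1.07 to 1.68 for Angpt2. Depth is unknown, so the error of low values such as those of Vegfc and Flt4 could not be separated into counting and biological parts.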
